A study of Mus musculus with 3 samples.

Results

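The annotation used here holds 9940 mouse genes whose transcripts are all of the type processed pseudogene. Of these, 450 (4.53%) had a gene level of at least 1 TPM (a read count scaled for gene length and for the library total) in each of 3 libraries, and these 450 are described here as the detected processed pseudogenes. They were chosen by their measured TPM in the gene tables, so their levels are a description and carry no test. The same rule was met by 7864 of 21951 coding genes (35.8%) and by 10137 of all 55450 genes (18.3%). The libraries were total RNA-seq, depleted of ribosomal RNA, of the chromatin fraction of bone-marrow-derived macrophages, primary cells of C57BL/6J mice. All 3 came from cells given 100 ng/ml Lipid A, the membrane-anchoring part of bacterial lipopolysaccharide that activates TLR4, for 60 min. No genetic change is named in the labels, age and sex were not collected, and libraries of unstimulated cells were not analysed here. They are called biological replicates 1, 2 and 3, which started from 1 µg, 250 ng and 500 ng of RNA and share 1 donor entry. Errors given here thus measure how far these libraries differ, a spread that may be technical. The p-values given here set the difference between 2 ways of counting each library's reads against its spread over these libraries.

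A processed pseudogene is a copy of a messenger RNA that was reverse transcribed and inserted elsewhere in the genome, usually with the help of LINE-1 enzymes. The copy lacks the introns and the promoter of its parent gene, and over time it gathers substitutions, frameshifts and stop codons. Parents are often short, abundant messages such as those of ribosomal proteins. RNA bound to chromatin is rich in nascent transcripts that still hold their introns, and a pseudogene lying in an intron is part of such a precursor, in sense or in antisense. Where the host is read on the same strand, reads from a pseudogene's own transcript and from its host's precursor have the same letters and cannot be told apart in these tables. No source used here gives the strand setting of library or counting, so reads from a gene and from an antisense partner cannot be told apart either.

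A few members are shown with the coding sequence of the gene they resemble most, to show how far the letters of a member differ from those of its parent. Sequences are from the GENCODE M21 transcripts on mm10, 5′ to 3′, and capitals mark the bases at which the member and its parent differ. Gm6341 (ENSMUSG00000083121.3, chr7:101154906-101155055, minus strand), the member with the highest level, was set against the start of the Rpl27 coding sequence.
Gm6341: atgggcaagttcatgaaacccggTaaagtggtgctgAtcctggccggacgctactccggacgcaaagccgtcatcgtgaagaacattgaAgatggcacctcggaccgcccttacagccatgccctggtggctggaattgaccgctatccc
Rpl27: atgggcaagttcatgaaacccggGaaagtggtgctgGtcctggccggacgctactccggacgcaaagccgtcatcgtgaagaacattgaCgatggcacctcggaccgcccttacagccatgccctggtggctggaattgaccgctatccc
These 150 bases held 3 differences (98% identical), with a longest run without a difference of 60 bases and no stop codon in the frame of Rpl27, and over the whole match the identity was 98.5%. Rpl36-ps2 (chr11:76601319-76601468, plus strand) was set against the start of the Rpl36 coding sequence.
Rpl36-ps2: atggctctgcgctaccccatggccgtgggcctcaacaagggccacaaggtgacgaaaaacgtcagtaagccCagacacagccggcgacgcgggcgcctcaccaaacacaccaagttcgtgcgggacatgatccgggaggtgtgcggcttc
Rpl36: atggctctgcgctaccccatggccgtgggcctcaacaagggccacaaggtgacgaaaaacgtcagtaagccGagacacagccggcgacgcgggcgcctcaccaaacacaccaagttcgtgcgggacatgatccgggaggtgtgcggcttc
It held 1 difference in these 150 bases (99.3% identical), and was 96.6% identical to Rpl36 over its whole match. Gm49134 (chr14:47162497-47162634, plus strand), the member with the highest level among 18 that resemble Rpl7a, differed more from its parent.
Gm49134: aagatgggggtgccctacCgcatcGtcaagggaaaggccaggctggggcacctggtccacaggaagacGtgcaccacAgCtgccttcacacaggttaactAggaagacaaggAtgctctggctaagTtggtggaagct
Rpl7a: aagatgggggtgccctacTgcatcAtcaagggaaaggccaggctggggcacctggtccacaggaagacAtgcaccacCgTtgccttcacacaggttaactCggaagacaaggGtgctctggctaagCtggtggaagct
Over 138 bases it held 8 differences (94.2% identical), and 1 stop codon lay in the frame of Rpl7a. The whole match, of lower identity (88.1%), held 2 stop codons and 2 shifts of the frame. 2610024D14Rik (chr11:21099656-21099805, plus strand) was further from its parent, the ATP synthase subunit gene Atp5l.
2610024D14Rik: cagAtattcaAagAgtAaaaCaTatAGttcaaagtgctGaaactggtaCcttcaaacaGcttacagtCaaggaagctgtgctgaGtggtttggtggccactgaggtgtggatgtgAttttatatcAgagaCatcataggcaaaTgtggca
Atp5l: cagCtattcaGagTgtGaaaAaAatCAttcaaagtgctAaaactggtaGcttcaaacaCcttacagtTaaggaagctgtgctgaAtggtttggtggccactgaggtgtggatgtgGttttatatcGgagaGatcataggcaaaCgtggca
Its 17 differences in 150 bases (88.7% identical) left no shared run longer than 30 bases in this stretch, and 1 stop codon lay in the frame. Over the whole match the identity was 78.9%, with 7 shifts of the frame. Gm9845 (chr3:39358754-39358903, minus strand) stood at the other end.
Gm9845: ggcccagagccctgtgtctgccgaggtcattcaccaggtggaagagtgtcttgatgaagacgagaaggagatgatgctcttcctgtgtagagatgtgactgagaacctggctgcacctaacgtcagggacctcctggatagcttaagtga
It held 0 differences from Cflar over these 150 bases, so any read that falls inside this stretch fits the gene and the pseudogene equally.

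Gene expected counts were 13318395, 15352661 and 15812581 in replicates 1, 2 and 3. Macrophage markers were detected for 10 of 10 genes (mean TPM 8.61 to 454, summed level 967 to 1258 per library), against 1 of 24 markers of T cells, B cells, neutrophils, erythroid cells, fibroblasts and endothelium (Kdr at 1.95, summed level 2.74 to 4.49). In these bulk libraries, fewer cells expressing a gene and less RNA per cell cannot be told apart. The 450 members together held 0.216% ± 0.0301 (SD, n = 3, as for each ± below) of gene counts, and all 9940 processed pseudogenes held 0.249% ± 0.0347. The shares of the members were 0.212%, 0.248% and 0.188% in replicates 1, 2 and 3, highest in replicate 2.

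Most members had a low TPM that rested on few reads. The median of their mean TPM was 4.83 (range 1.32 to 158), against 8.13 for detected coding genes. In 219 members the mean TPM was at least 5, in 119 at least 10, in 18 at least 50 and in 7 at least 100. Their median count per library was 23, 30 and 25, and 133 of the 450 had fewer than 10 counts in at least 1 library, while 58 had at least 100 in each. The deposited 95% interval of the TPM stayed at or above 1 in all 3 libraries for 303 members. Members were short, with a median length of 514.5 bases (172 to 4726), close to the 527 bases of the undetected ones, and 430 (95.6%) had a single exon, against 90.2% of the undetected. Their GC content had a median of 48.0%, against 47.3%. For the 23 members under 250 bases, the mean effective length, which is the number of positions a fragment can start from, was 33.5 bases. A median of 3 counts in those 23 therefore became a median TPM of 10.4, whereas in the 63 members of at least 1000 bases a median of 97 counts became 4.35.

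The member with the highest mean level was Gm6341, a copy of the large ribosomal subunit gene Rpl27 on chromosome 7 (101154645 to 101155055), at 126, 155 and 194 TPM in replicates 1, 2 and 3 (158 ± 33.9). It lay in intron 3 of 20 of Fchsd2, which encodes an F-BAR protein of membrane and actin remodelling, on the opposite strand. Fchsd2 stood at 1001, 644 and 1033 TPM, the highest of any host named here. Rpl27 itself stood at 26.4 TPM, below the level listed for the copy. The part of Fchsd2 reads in the level of the copy was not tested. The Fchsd2 values were lowest in replicate 2, where those of Gm6341 took a middle place.

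Gm47727 followed at 118, 190 and 120 TPM (143 ± 41.3). It lay on the same strand in intron 2 of Aoah, the lipase that removes acyl chains from lipid A, whose level was 155, 209 and 170. Gene and member were both highest in replicate 2, as were 65.6% of all members and 61.5% of detected coding genes. Rpl36-ps2 was at 76.6, 163 and 140 TPM (127 ± 44.8), opposite to Abr, a GTPase-activating protein for Rac, at 151, 125 and 163. Gm21370 was at 82.2, 169 and 105 TPM, opposite to the annotated gene Gm36161, and 23.3% of its bases were also exon of another gene. The ranges over the libraries of these 4 members overlapped, so their order among themselves is not fixed by 3 libraries.

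Gm15530, a copy of the anaphase-promoting complex gene Anapc10, was at 73.8, 125 and 113 TPM in intron 1 of Arhgap31, a GTPase-activating protein for Cdc42 and Rac1, on the same strand. Anapc10 itself was at 0.880 TPM and Arhgap31 at 49.9, so this member stood above both parent and host. 2610024D14Rik was at 83.6, 95.7 and 127 TPM in intron 1 of Peli1, a ubiquitin ligase of Toll-like receptor signalling, on the same strand. Peli1 was at 102, 64.4 and 137 TPM, lowest in replicate 2, which 2610024D14Rik was not. Gm13357 was at 78.2, 127 and 97.0 TPM in intron 1 of Abi1, a subunit of the WAVE actin-nucleating complex, on the same strand. It had no coding match over at least 50% of its length.

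The next members stood between 70 and 81 TPM. Gm31544 (59.3, 103 and 78.5 TPM) matched the phosphatase gene Ctdsp1 at 99% identity and lay opposite to Gm21188, on the same chromosome as Gm21370, whose best match was also Ctdsp1. Of the bases of Gm31544, 40.8% were also exon of another gene, and 97.6% of its 31-base words were shared with other transcripts. Gm12230 was at 52.8, 109 and 75.7 TPM opposite to Tnip1, an inhibitor of NF-kappaB signalling that binds A20, itself at 246. Gm13650, a copy of the ubiquitin-conjugating factor gene Ube2v2, was at 57.8, 91.6 and 70.5 TPM in Sestd1 on the same strand. Gm49134 was at 47.1, 100 and 71.3 TPM opposite to Gch1, the first enzyme of tetrahydrobiopterin synthesis, which was at 43.9, 86.5 and 53.6. The member and Gch1 were both lowest in replicate 1 and highest in replicate 2, the most frequent places over all members. Gm47324 was at 65.6, 64.1 and 85.3 TPM in intron 9 of Fchsd2, the same host as Gm6341 but on its sense strand. Each of these 12 members lay inside another annotated gene, 6 on the same strand and 6 on the opposite one.

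**Figure D1:**
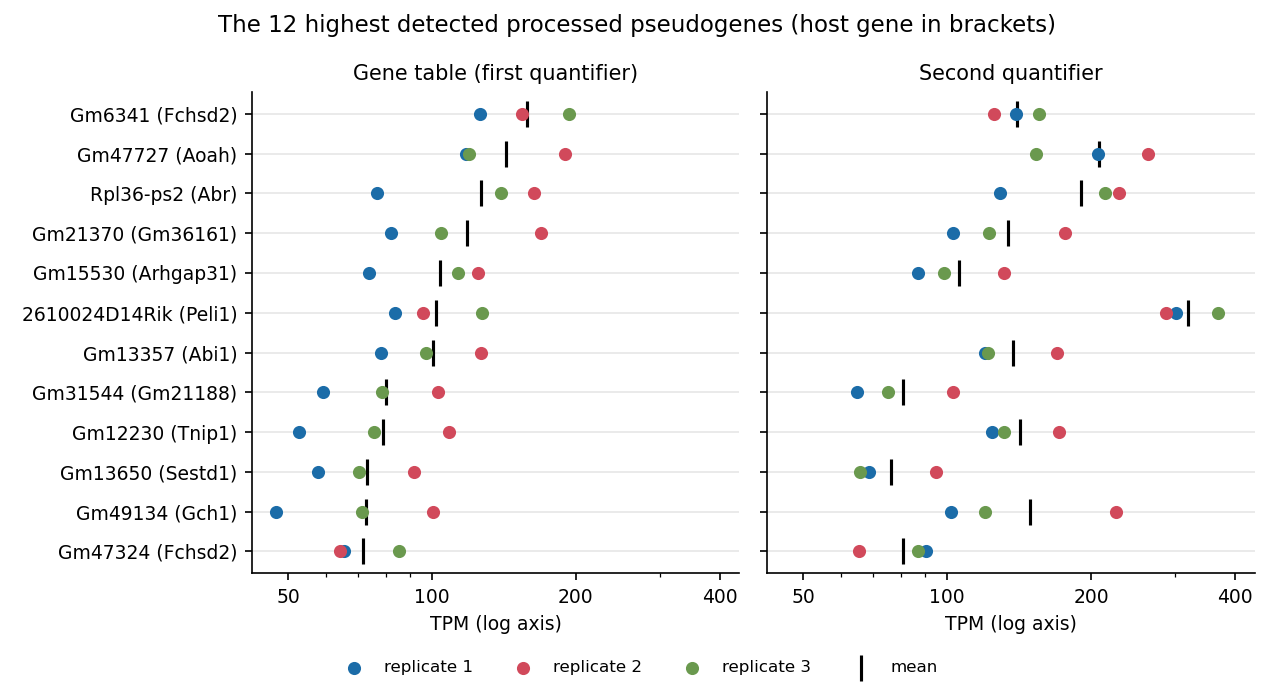
TPM of the 12 members with the highest mean level. Each point is 1 library, coloured by replicate, on a log axis of TPM with the first quantifier (left) and the second (right), black bars are means, and hosts are in brackets. Means with the first quantifier run from 158 for Gm6341 down to 71.7 for Gm47324, and replicate 2 is the highest point for 9 of the 12.

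The position of a pseudogene was not used to choose it, and it differed widely between the detected and the undetected ones. Of the 450 members, 408 (90.7%) lay wholly inside another gene that is not a processed pseudogene, against 2344 of the 9490 undetected (24.7%). On the same strand as the host lay 152 members (33.8%), and 256 (56.9%) lay on the opposite strand, against 9.54% and 15.2% of the undetected. No member that lay in no gene overlapped one in part, and 42 (9.33%) lay outside, against 74.3% of the undetected. The host was a coding gene for 395 members (87.8% against 18.0%), and it was itself detected by the same rule for 396 (88.0% against 6.27%). Among pseudogenes inside a gene, the strand made little difference: 62.7% of the detected and 61.4% of the undetected lay opposite to their host. For 385 of the 408 (94.4%) no base was exon of another gene on either strand, so these were intronic. The share was similar in the undetected ones inside a gene (2122 of 2344, 90.5%). Of 404 with an intron number, 139 lay in the first intron, and the median length of the introns was 20185 bases. The intron numbers and lengths are not given for the undetected, so nothing is read from them about the members. Of the 317 members with at least 10 counts in each library, 292 (92.1%) lay inside a gene, so the share was no lower without the members resting on few reads.

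**Figure D2:**
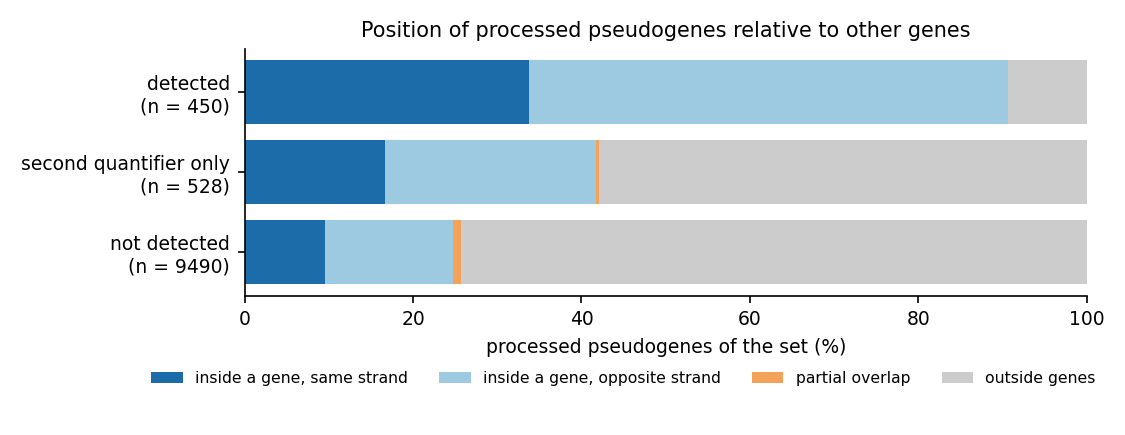
Share of processed pseudogenes, in percent, on the same strand inside a gene, on the opposite strand, overlapping in part or outside, for detected members, for those reaching the TPM minimum with the second quantifier alone and for those not detected. The inside classes hold 90.7% of the 450 members, 41.7% of the 528 found with the second quantifier alone and 24.7% of the 9490 not detected with the first.

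How often a pseudogene inside a gene was detected was higher at higher levels of the host on either strand up to 100 TPM. At a host level under 0.1 TPM, 5 of 1347 were detected (0.371%), and between 0.1 and 1 TPM 5 of 344 (1.45%). Between 1 and 10 TPM, 39 of 192 same-strand pseudogenes (20.3%) and 62 of 357 opposite-strand ones (17.4%) were detected. Between 10 and 50 TPM these shares were 56.2% and 53.6%, between 50 and 100 TPM 67.9% and 63.5%, and at 100 TPM or more 64.0% and 71.4%. Over hosts of at least 10 TPM, 108 of 183 (59.0%) on the same strand and 189 of 329 (57.4%) on the opposite strand were detected, 297 of 512 together (58.0%). Pseudogenes in hosts under 1 TPM (10 of 1691, 0.591%) were detected as seldom as those outside any gene (42 of 7097, 0.592%). The level of the detected members followed the same order, with medians of 3.27, 4.69, 13.4 and 19.1 TPM for hosts at 1 to 10, 10 to 50, 50 to 100 and at least 100 TPM.

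Across the 408 members inside a gene, the log2 levels of member and host had a Pearson r of 0.54, and across all 2752 processed pseudogenes inside a gene it was 0.72. These points share libraries and, in part, hosts, and the first of them were chosen on one of the axes, so both values are descriptions. The log2 levels of 432 members and of their best coding matches had an r of 0.002. That value covers members alone, which were chosen on level, and none is given here over all pseudogenes with a match. The median level of a member was 0.282 of its host's, with the middle of the distribution from 0.137 to 0.601. It was 0.352 on the same strand and 0.251 on the opposite strand, and 62 members stood above their host. The median level of a member was 5.75 TPM on the same strand, 4.61 on the opposite strand and 4.35 outside.

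**Figure D3:**
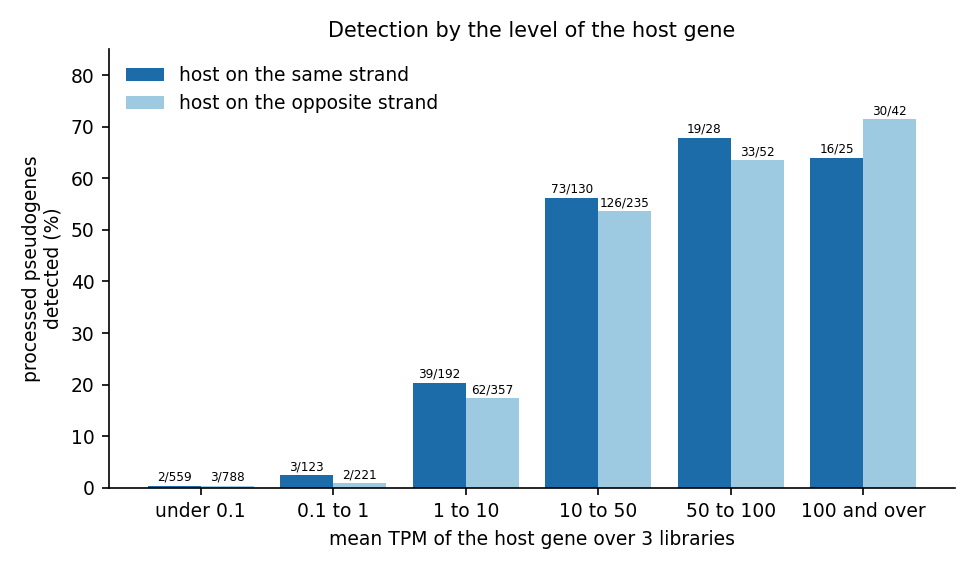
Share of processed pseudogenes detected, in percent, by the mean TPM of the gene that holds them, with separate bars for hosts on the same and on the opposite strand and the numbers of pseudogenes above them. Both strands go from under 1% in hosts below 0.1 TPM to 64.0% and 71.4% in hosts at 100 TPM or more.

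Many pseudogenes in hosts of a high level were not detected. Among the 512 in hosts of at least 10 TPM, the 215 undetected ones lay nearer to the start of the host, at a median of 34.4% of its length against 43.2% for the 297 detected. They were also shorter (464 against 530 bases), had hosts of a lower level (25.8 against 32.8 TPM) and shared slightly more of their sequence with other transcripts (22.1% against 18.6% of 31-base words). These are medians of sets that overlap widely, and the part of each was not tested.

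The 408 members inside a gene had 357 different hosts, and 45 hosts held at least 2 members. The median host stood at 21.4 TPM, against 0.0267 for the hosts of undetected pseudogenes. None of the 450 lay inside a gene of a list of 54 genes known from the macrophage response, and none of the undetected ones did either, so that list gave no comparison. Med15, a subunit of the Mediator complex at 108 TPM, held 4 members, all on its opposite strand. They were the copies of ribosomal protein genes Rpl26-ps4 (17.8, 24.0 and 23.1 TPM), Gm49683 (4.90, 16.5 and 8.10) and Gm49684 (6.39, 16.3 and 11.9), with Gm18335 (8.69, 16.9 and 8.97). All 4 were highest in replicate 2, as was Med15 (93.7, 133 and 95.4). Replicate 2 was the highest library for 65.6% of all members and 61.5% of detected coding genes, so a shared highest library is common. Gnaq, a G protein alpha subunit at 40.5 TPM, held the Ppia copy E030024N20Rik (42.7, 81.4 and 56.5) and the Pebp1 copy Gm10819 (17.3, 34.9 and 21) on its opposite strand. It also held the Gapdh copy Gm17068 (14.2, 32.3 and 15.6) on its own strand. All 3 had their highest value in replicate 2, where Gnaq (36.4, 40.4 and 44.7) took a middle place.

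Atg7, the autophagy E1-like enzyme at 37.3 TPM, held 3 same-strand members with mean levels of 17.2, 4.03 and 3.46 TPM, so members of 1 host differed among themselves by over 4-fold. Tbc1d1 held Gm15824 at 22.7 TPM and Gm15823 at 3.81 on its opposite strand, and the Ppia copy Gm6044 at 6.54 on its own strand. Gch1 held, besides Gm49134, the same-strand member Gm18811 at 11.4, 43.8 and 19.9 TPM. That member had its low and high libraries in the same places as Gch1, with a wider spread, and these were the most frequent places over all members.

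The same-strand members with the highest hosts did not have the highest levels throughout. After Gm47324 in Fchsd2 came Gm17849 at 28.2, 37.7 and 25.1 TPM in Osbpl8, an oxysterol-binding-protein family member at 417 TPM. CT025731.2 was at 35.1, 37.3 and 21.1 TPM in Xdh, xanthine dehydrogenase, at 373. Gm11478 was at 1.38, 2.20 and 1.47 TPM in Vmp1, an autophagy protein of the endoplasmic reticulum, at 276. Gm8850, a copy of the chromatin gene Hmgb3, was at 31.6, 42.3 and 36.9 TPM in Stx6, a SNARE protein of the trans-Golgi network, at 156. Gm11478 thus stood over 10-fold below each of the other members of this group, in a host with a level above those of Aoah and Stx6.

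Some members stood far above their host. Gm15466, a copy of the prothymosin gene Ptma with an open frame, was at 49.5, 54.9 and 81.3 TPM on the same strand as Mrps28, a mitochondrial ribosomal protein gene at 2.16, 3.43 and 3.78. The Rpl29 copy Gm15467, on the opposite strand of the same host, was at 5.61, 12.8 and 19.2 TPM. All 3 genes of this locus were lowest in replicate 1 and highest in replicate 3. Both Cntnap2 and Gm26573 were listed at 0 TPM in each library, opposite to Rbpj-ps3 (1.06, 2.63 and 2.96) and to Gm13241 (7.80, 7.59 and 7.83) respectively. The second quantifier gave the hosts mean levels of 1.32 and 4.11 TPM. It listed Rbpj-ps3 at 0 in all 3 libraries, so that member stood below its host there, and gave Gm13241 6.63. Rbpj-ps3 shared 93.2% of its 31-base words with other transcripts and resembled Rbpj at 99.7% identity.

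Of the 42 members outside any other gene, 13 of them (31%) began within 10000 bases downstream of a gene on the same strand, against 764 of 7055 undetected ones (10.8%). For 9 (21.4%, against 1.97%) that gene was itself detected. Gm3219 began 16 bases after Glud1, Gm11425 133 bases after Slfn10-ps and Gm6548 608 bases after Eif2ak2, the kinase activated by double-stranded RNA. Gm49728 began 613 bases after Parp14, an interferon-induced ADP-ribosyltransferase at 462, 349 and 541 TPM. It stood at 4.21, 1.78 and 4.95 TPM, which rested on 4, 1 and 3 counts, and was lowest in replicate 2 as Parp14 was. Gm19253 began 701 bases after Gpnmb, a gene at 1164 TPM, and stood at 2.41, 10.3 and 6.83 TPM. CT571247.1 (5.30, 6.65 and 5.06 TPM) began 7361 bases after Tnfsf9, a ligand of the tumour necrosis factor family, at 251. The levels of Gm49728, Gm19253 and CT571247.1 were small beside those of the genes before them, whereas Gm11425 (21.8, 32.9 and 24.4 TPM) stood nearer to Slfn10-ps at 38.1.

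A coding match over at least 50% of the length was found for 432 members, with a median identity of 90.9% against 88.7% for the undetected. The match was at least 95% identical for 127 members (28.2% against 22.5%), at least 99% for 40 and 100% for 10. The members had 263 different parents, 64 of which had more than 1 member, and 202 of the 263 were detected. The median parent stood at 6.46 TPM, and 177 members stood above theirs. A parent is here the best coding match by sequence, and some of these, such as Gm10358 and AC117239.2, stood at 0 TPM. Members outside a gene were nearer to their parents, with a median identity of 94.8% against 90.2% for those inside.

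Ribosomal protein genes were the largest family of parents, with 151 members (33.6%, against 24.0% of the undetected) from 48 genes. Their median level was 5.28 TPM (1.47 to 158), and 143 of the 151 lay inside a gene. Rpl7a, which encodes a protein of the large subunit and stood at 28.3 ± 4.46 TPM, had 18 members, from Gm46448 at 1.74 to Gm49134 at 73.0 TPM. Of these, 17 lay inside 17 different hosts, each on the opposite strand, and AC148017.1 at 11.2 TPM lay outside. Of 55 undetected Rpl7a copies inside a gene, 40 lay opposite to it. Rps2, of the small subunit at 30.1 TPM, had 11 members inside 11 hosts, 7 of them opposite. Rpl17 had 9, 8 of them opposite, among which Gm20612 was at 59.7, 66.9 and 48.2 TPM against 51.1, 63.8 and 62.5 for its host Il10ra, the interleukin-10 receptor chain. The ranges of that member and its host overlapped. Rpl29 and Rps6 had 7 members each, Rpl12 and Rpl35a 6 each.

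Glycolysis genes gave 13 members (2.89%, against 3.39% of the undetected), all inside a gene, with a median of 3.99 TPM. Gapdh, the glyceraldehyde-phosphate dehydrogenase gene at 11.3 TPM, gave 11 of them, at 1.82 to 20.7 TPM and in 11 hosts, with 9 opposite to the host. Among 42 undetected Gapdh copies inside a gene, 34 were opposite. The high mobility group and chromatin list gave 17 members (3.78% against 3.84%), all inside a gene, with a median of 3.59 TPM. Hmgb1, a DNA-bending protein gene at 4.35 TPM, gave 10 of them in 10 hosts, 5 opposite. The hnRNP and splicing list gave 18 members (4% against 2.08% of the undetected), 17 of them inside a gene. Of these, 8 resembled Hnrnpa3, an RNA-binding protein gene at 128 TPM, and Gm12229 was the highest at 44.3, 46.1 and 52.0 TPM, in Cdc42se2 at 20.4 on the same strand. Gm6254 (7.79, 8.48 and 9.78 TPM) and Gm17082 (7.5, 8.60 and 9.52) both lay on the same strand inside Tm9sf2 (4.05, 4.24 and 5.10). Both stood above the host in each library, and all 3 genes had the same order of libraries.

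The mitochondrial energy list gave 15 members (3.33% against 2.85% of the undetected), and 14 of them lay inside a gene. Their median of 10.4 TPM was the highest of the lists. The lists were not compared at like length, and in members under 250 bases a median of 3 counts gave a median TPM of 10.4. Translation factors gave 14 members (3.11% against 1.98%, median 3.94 TPM, 11 inside). Cyclophilin and chaperones gave 7 (1.56% against 1.73%, median 6.54 TPM, all inside), and ubiquitin and proteasome genes 6 (1.33% against 1.66%, median 5.67 TPM, 5 inside). The cytoskeleton list gave 3 (0.667% against 1.24%), small GTPases 2 (0.444% against 0.432%) and ferritin 1 (0.222% against 0.0843%), which was Fth-ps2 at 5.75, 9.09 and 4.88 TPM in Braf against 356 for the ferritin heavy chain gene Fth1. A parent of none of these lists was found for 185 members (41.1% against 51.9%, median 4.65 TPM), and 18 had no match (4% against 4.82%). The lists went by the symbol of the best match alone. Hspe1-ps5 and Hspe1-ps2, with the best match AC117239.2, therefore count among the 185 and not among the chaperones. Gm15590 and Gm15580, which matched Ftl1-ps1, and 3 members that matched Gm10358 also count there. Since the lists follow what is known of processed pseudogenes and the members were chosen on level, the shares are given without a test.

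By chromosome, the detected share ran from 11.1% on chromosome 11 (46 of 414) and 7.64% on chromosome 9 to 1.25% on chromosome 15 (4 of 320) and 1.19% on the X chromosome (11 of 925). None of 91 on the Y chromosome was detected.

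Alignment to the parent's reading frame over at least 150 bases was possible for 416 members and 8446 undetected pseudogenes. A stop codon in the parent's frame was found in 223 members (53.6% against 62.7%) and a shift of the frame in 326 (78.4% against 78.3%). Neither was found in 77 (18.5% against 15.6%), and for 55 (13.2% against 10.2%) this open stretch covered at least 90% of the parent's coding sequence. Inside a gene 16.5% of members were open, and of 35 outside 14 (40.0%). Gm6341 was open over 100% of the Rpl27 coding sequence, and Gm11425 over 100% of that of Rpl12, Rpl26-ps4 over 100% of Rpl26 and Gm15542 over 100% of Dnaja1, a chaperone gene. Gm15530 had 1 stop codon over 99.1% of Anapc10. An open frame in the sequence is no measure of translation, which was not assayed.

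How far reads can be assigned to a member depends on the letters it shares with other transcripts. The share of a member's 31-base words that also occur in another transcript had a median of 20.5% (15.1% in the undetected), with 94 members sharing none and 16 sharing all. In 55 members the posterior SD that the first quantifier gave for its count was over 5% of the count in at least 1 library. None of them was among the 179 members sharing under 10% of words, 1 was among 127 sharing 10% to 50%, 23 among 108 sharing 50% to 90% and 31 among the 36 sharing over 90%. Of the 408 members inside a gene 41 and of the 42 outside 14 (33.3%) had such a posterior SD. Of the 179 members with few shared words, 170 (94.97%) lay inside a gene, against 22 of the 36 (61.1%) with the most. The share inside a gene was thus no smaller among members with few shared words than over all 450. Whole-number counts in each library, to within 0.005, were given for 341 members.

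The second quantifier, which gave estimated counts per transcript that were summed here per gene, put 435 of the 450 members (96.7%) at or above the same TPM minimum in each library. For coding genes chosen by the same rule the share was 99.8%. It found 963 processed pseudogenes in all, 528 of which the first did not. The share of those 528 inside a gene was 41.7%, lower than the 90.7% of the members. The second quantifier gave more counts in total (21055097, 27428699 and 27362420), and put 0.412% ± 0.0435 of them in the members. Because the members were chosen on the first quantifier, the differences below describe each gene, and nothing is read from them about the class.

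On log2(TPM + 1), the second quantifier minus the first had a median of 0.35 over members, 0.59 over detected coding genes and 0.96 over all genes tested. In limma, with Benjamini-Hochberg adjustment over 18077 genes, 448 members were tested and 223 were higher and 15 lower in the second quantifier, where 78.1% and 1.05% of all tested genes were called. After centring on the median of all genes, 39 members were higher and 285 lower, against 38.9% and 37.6% of all. On log2(CPM + 1), from counts without length scaling, 176 were higher and 76 lower, against 56.1% and 19.6%. In 82 members the difference was over 1 (18.2%, against 23.8% of coding genes). In 10 of the 450 it was under -1, against 0.0636% of coding genes.

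The ratio of counts, second over first, was largest in short members. Its median was 5.84 in 23 members under 250 bases, 3.97 in 77 of 250 to 350, 2.46 in 117 of 350 to 500, 1.70 in 170 of 500 to 1000 and 1.38 in 63 of at least 1000 bases. Detected coding genes had ratios of 2.87 in 35 of 350 to 500 bases, 2.22 in 689 of 500 to 1000 and 1.68 in 7134 of at least 1000. Over these classes the ratio was thus higher in shorter coding genes too. Few coding genes were shorter, with 2.69 in 4 of 250 to 350 bases and 25.4 in 2 under 250. 2610024D14Rik, of 294 bases, went from 83.6, 95.7 and 127 TPM to 301, 287 and 368 (difference 1.65, SE 0.111, adjusted p = 9.7e-05, higher in 3 of 3 libraries). It shared 3.79% of its words with other genes, and the 3 libraries of the 2 quantifiers did not overlap. Its difference stands beside a median of 0.96 over all tested genes, 78.1% of which were called higher.

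The largest differences, those of Gm48493 and Gm20689, were in members made almost wholly of shared sequence. This did not hold over the members as a whole. The median difference was 0.68 in those sharing under 10% of words and 0.29 at 10% to 50%. It was 0.06 at 50% to 90% and 0.005 over 90%. A difference of over 1 in either direction was found in 48 of the 179 sharing under 10% and in 16 of the 36 sharing over 90%. Gm48493, 98.4% of whose words were shared, had 1.48, 1.39 and 1.80 TPM with the first quantifier and 532, 468 and 422 with the second (difference 7.53, SE 0.128, adjusted p = 2.3e-06, higher in 3 of 3). It lay outside any gene and matched D10Wsu102e at 95.7% identity. Gm20689, identical to part of the small GTPase gene Rab8b, had 1.26, 3.05 and 4.52 against 480, 433 and 428 TPM (6.92, SE 0.281, adjusted p = 2.0e-05, higher in 3 of 3). Its posterior SD reached 67.8% of its count, and Rab8b stood at 65.6 TPM. The second value of Gm20689 exceeded the level of Rab8b in the first table.

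The other 4 members that stood highest in the second quantifier were Gm49683 (2.99), Gm47147 (2.77), Gm13574 (2.39) and Gm48786 (2.35), each higher in 3 of 3 libraries. Gm49683 and Gm13574 shared no word with another transcript. Gm13574 lay in Baz2b, a bromodomain protein gene at 123 TPM, on the same strand, and went from 8.73, 13.7 and 14.3 to 57.5, 78.4 and 67.3 TPM. Gm49683 went from 4.90, 16.5 and 8.10 to 64.3, 107 and 66.6 TPM, of 279 bases and with 8, 17 and 9 counts in the first table.

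At the other end, Gm48145 had 5.65, 4.11 and 11.8 TPM with the first quantifier and was listed at 0 in each library with the second (difference -2.92, SE 0.271, adjusted p = 0.0003). Its words were all shared and its posterior SD reached 40.6% of the count. Gm47605 was also listed at 0 by the second, with 12.7, 2.15 and 5.97 TPM (19, 2 and 6 counts) in the first. Gm7964, 99.2% identical to the RNA-binding protein gene Hnrnpk at 245 TPM, had 4.18, 4.27 and 5.03 against 0, 0.0979 and 0.0483 TPM. Gm10774, Gm18588 and Gm48048 followed at -1.86, -1.82 and -1.72, each sharing over 99% of its words. Gm18588 lay in Ift80, the host of Gm20689, which went the other way.

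Gm9845, whose 598 bases share all their words with Cflar, stood outside any gene at 73.0, 61.0 and 65.0 TPM. The second quantifier gave it 169, 163 and 163 (difference 1.30, SE 0.0971, adjusted p = 0.00014, higher in 3 of 3). That p-value is against a difference of 0, whereas the median over all tested genes was 0.96 and 78.1% of them were called higher. Cflar, which restrains caspase-8 and is on the list of response genes, was at 342 ± 28.5 TPM. The posterior SD of Gm9845 was 8.52% of its count at most. Reads that fall inside this member cannot be told from reads of Cflar by their letters.

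**Figure D4:**
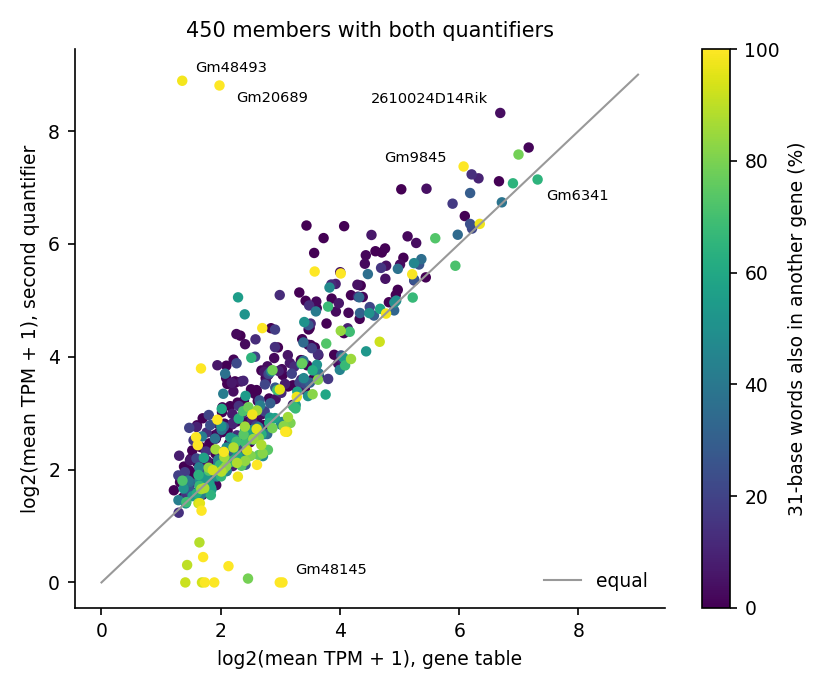
Level of the 450 members as log2(mean TPM + 1) with the first quantifier (horizontal) and the second (vertical), each point 1 member, coloured by the percentage of its 31-base words found in another gene. Gm48493 and Gm20689 lie far above the line of equal values and Gm48145 at 0 with the second quantifier, while 435 members reach 1 TPM in each library with both.

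The spread between libraries was wider over members than over coding genes. The median SD of log2(TPM + 1) was 0.39 over members, 0.26 over all detected genes and 0.25 over detected coding genes. It was 0.24 over members without replicate 2. The highest library was replicate 2 for 295 members (65.6%, against 61.5% of coding genes), replicate 3 for 123 and replicate 1 for 32. The lowest was replicate 1 for 305 (67.8%, against 75.8%), replicate 3 for 90 and replicate 2 for 55. Replicate 2 stood 0.42 above the mean of the other libraries in the median member, and 0.24 above it in the median coding gene. This library started from the least RNA (250 ng), and the part of the starting amount, or of the members' low counts, in these values was not tested.

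The members that varied most rested on few reads or shared sequence, with exceptions. Gm16199, which is identical to part of the ubiquitin ligase gene Cop1, was at 19.9, 22.7 and 2.79 TPM, with a posterior SD of up to 65.5% of its count. Gm15899, identical to part of the Arp2/3 complex gene Actr3, was at 20.4, 9.57 and 2.84 TPM with one of up to 78.1%. Rps27-ps1 was at 2.62, 14.5 and 16.1 TPM from 3, 10 and 12 counts. AC139157.1, with 8, 63 and 38 counts and a posterior SD of 0, was at 1.11, 10.8 and 6.28 TPM opposite to Mpp7, which was at 24.8, 68.1 and 104 TPM. Member and host were both lowest in replicate 1. Gm7180 (1.06, 7.97 and 6.56 TPM) was low in replicate 1 while its host Pde8a (14.5, 16.1 and 15.5) varied little, and Gm15049 (3.35, 11.8 and 2.09) was high in replicate 2.

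Across the 408 members inside a gene, the deviation of replicate 2 in the member and in its host had a Pearson r of 0.34, and of 0.42 over the 99 with at least 50 counts in each library. The points share the libraries and in part the hosts, so these are descriptions. Named after their values were seen, 3 members were low in replicate 2. Gm19244 was at 15.3, 5.29 and 22.1 TPM from 19, 4 and 18 counts, opposite to Herc6, an interferon-induced ubiquitin ligase, at 69.0, 30.8 and 102. Gm45712 was at 5.13, 2.32 and 3.25 TPM opposite to Mlkl, the effector of necroptosis, at 19.2, 7.47 and 23.9. Both hosts were lowest in replicate 2 as well. Gm48333, at 16.7, 4.50 and 16.7 TPM, lay in Ascc3, where replicate 2 was not low (89.0, 91.9 and 104).

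**Figure D5:**
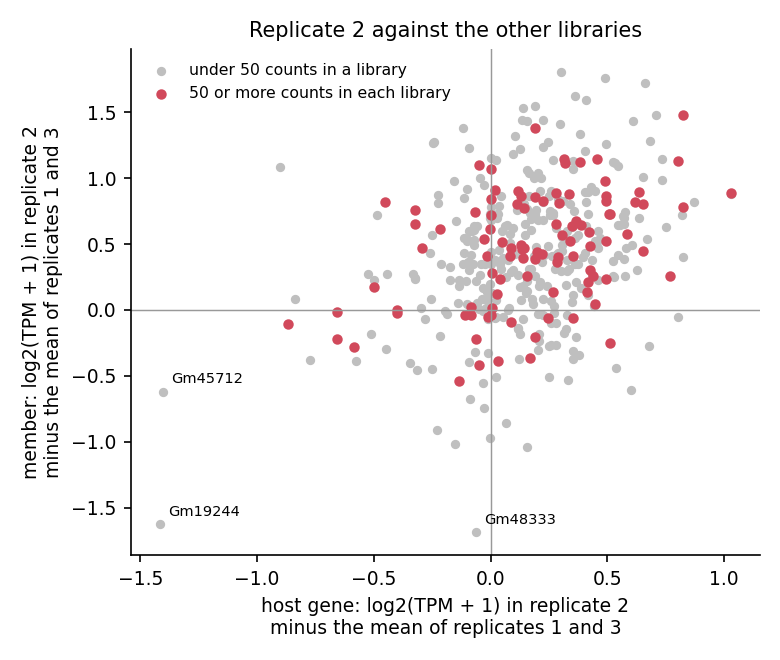
Deviation of replicate 2 from the mean of the other replicates, on log2(TPM + 1), for the host gene (horizontal) and the member (vertical), each point 1 of 408 members inside a gene, red where each library has at least 50 counts. Most points lie above 0 on the vertical axis, where the median over the 450 members is 0.42, and Gm19244 and Gm45712 lie low on both axes while Gm48333 is low in the member alone.

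The TPM minimum passes through a dense range of levels. Just inside it, Gm15739 was at 1.14, 1.80 and 1.02 TPM, Gm27026 at 1.03, 3.40 and 1.89, Gm12303 at 1.04, 3.21 and 1.22 and Gm11742 at 1.04, 5.25 and 3.25. Gm11742 rested on 1, 3 and 2 counts, and the exact Poisson 95% interval of its single count in replicate 1 ran from 0.0253 to 5.57, which covers counting error alone. Just outside, Rpl13-ps1 was at 1.53, 0.990 and 2.19 TPM, Gm2253 at 1.79, 3.48 and 0.990, Gm7809 at 1.49, 0.980 and 2.28 and Gm8407 at 0.970, 1.95 and 1.85. The ranges over the libraries overlap between the genes just inside and those just outside. In single libraries, 552, 720 and 639 processed pseudogenes reached 1 TPM with the first quantifier and 1092, 1266 and 1151 with the second, in each case most in replicate 2.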

How the data were processed

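Total RNA-seq of chromatin-fraction RNA was measured in 3 libraries of Lipid A stimulated macrophages, 1 group. Per the labels' protocols the assembly was mm10 and the size range 250 to 400, and the annotation was GENCODE M21, per the text files deposited with each library. No source used here gives the programs, their versions or the strand setting. Per the file headers, the gene tables (the first quantifier) hold expected counts, TPM, posterior SDs and 95% bounds of the TPM, under names that RSEM writes, and a transcript table (the second quantifier) holds estimated counts and TPM as the authors deposited them, under names that kallisto writes. Replicates were not pooled. Of 55536 gene rows, 86 had no row in the second table and were left out. Depth was 13318395 to 15812581 gene counts per library, and 3 counts, the limit that a count of 0 allows, were 0.190 to 0.225 CPM.

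Computed here: sums of the second table per gene, place relative to genes that are not processed pseudogenes (host: same strand first, then coding, then shortest), best coding match with blastn 2.17.0 (e-value 1e-10, at least 50% of the member covered), shared 31-base words, and reading frames aligned with Biopython 1.88. The difference between quantifiers, on log2(TPM + 1) within each library, was tested with limma 3.58.1 in R 4.3.3 (intercept only, variance trend, genes of mean TPM of at least 1, Benjamini-Hochberg, threshold 0.05). The fit was also run on simulated data in which most genes had no difference. In the real data 78.1% of genes were called higher, so that run is no check of the calls given here. No fold change between conditions exists, since there is 1 group.

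Every member could be named. Values in each library were given for the 12 highest, the 6 highest and 6 lowest differences between quantifiers, the 6 largest SDs, the 4 nearest the minimum on each side, the 6 same-strand members with the highest hosts and members sharing a parent. Members sharing a host, standing above it or following a gene, and those low in replicate 2, were chosen after their values were seen. The members and lists were chosen with earlier results of these data known. Other TPM minimums, pseudocounts, scalings, counts and left-out replicates were tried.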

Additional observations from a re-analysis of the deposited data

How the results depend on the processing

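Of 59 alternatives, 51 stayed within 1.5 times the main value, or within 1 SD of it for the share of gene counts, and 8 moved further. This rule looks at size alone and is wide. Centring on the median turned 223 higher and 15 lower members into 39 and 285, yet counted as unmoved. No rise of the share inside a gene could count as a move. The number of detected processed pseudogenes, 450, was 963 with the second quantifier, between 315 and 604 with TPM minimums of 2 and 0.5, 317 with at least 10 counts in each library, and 476 to 552 with a replicate left out. Members inside a gene numbered 152 on the same strand and 408 on either. The median SD, 0.39, was 0.22 on log2(CPM + 1) and 0.24 to 0.43 with a replicate left out, lowest without replicate 2. The share of gene counts in members, 0.216%, was 0.412% with the second quantifier and 0.258% with 3 genes around Gm26917 left out. Matches of at least 95% identity numbered 127, against 230 at 90% and 57 at 98%. Members called between quantifiers numbered 238 (223 higher, 15 lower), where 78.1% and 1.05% of all tested genes were called. After centring on the median they numbered 324 (39 higher, 285 lower), against 38.9% and 37.6% of all. The cause of these differences was not tested, other than that the alternative thresholds pass more or fewer genes by construction.

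Alternatives for the share inside a gene (90.7%, range 87.8% to 94.97%) and for detection in hosts of at least 10 TPM (58.0%, range 57.0% to 64.2%) were chosen after seeing the data. No paired analysis was possible because the 3 libraries form 1 group. Depth limits the 133 members with fewer than 10 counts in a library, and intervals cover counting error alone. Without unstimulated or unfractionated libraries, no effect of Lipid A or of the fraction can be given.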
